A study of Mus musculus with 7 samples.

Results

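The core circadian clock genes Arntl (also called Bmal1), Clock, Npas2, Nfil3, Cry1, Cry2, Per1, Per2, Per3 and Rora were followed in whole skeletal muscle of young and aged mice. They were chosen by name, with earlier results of these data known. Of the 10, 9 could be measured, as they are among the 22180 genes on the arrays that have a feature with 1 gene symbol. The only feature listed for Per2 carries a second symbol of a gene on another chromosome, so no value is given for Per2. The data were 7 GeneChip Mouse Gene 2.0 ST arrays, of 3 young WT mice (2 to 3 months), 2 aged WT mice (24 months) and 2 aged MISR mice (24 months), and each array was a biological replicate. All mice are labelled C57BL/6, and no treatment is given. MISR mice carry a transgene for the IκB super-repressor, which blocks NF-κB signaling, under the muscle creatine kinase (MCK) promoter. The block is therefore in the muscle fibers and lasts through life, while the other cells of the muscle keep NF-κB. The study's methods list C57BL/6 mice as bought and the MISR line as bred in house. They do not say where the WT mice of the arrays came from, and young MISR mice were elsewhere compared with littermates. Colony and transgene therefore cannot be told apart in aged MISR muscle. The sources used here do not state the time of day at which muscle was collected, which muscle it was or the animals' sex. Arrays are named by group and by the replicate number of the labels.

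The circadian clock is a feedback loop of transcription that runs in nearly every cell, muscle fibers included. BMAL1 (Arntl) pairs with CLOCK, or with its relative NPAS2, and binds E-boxes in the genes of the PER and CRY proteins, which then return to the nucleus and repress it. In a second loop RORA raises and the REV-ERB receptors lower transcription of Arntl and Npas2 through ROR response elements, and at D-boxes DBP, TEF and HLF activate transcription, which NFIL3 represses. In mouse tissues the RNA of Arntl and Npas2 peaks at about the opposite time of day to that of Dbp, Per3 and Nr1d1.

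Promoters of the 9 measured genes were taken from RefSeq (build GRCm38.p6) to show where these elements lie. Each window holds 250 bases before and 50 bases after a start site, and the 9 genes had 13 windows. An E-box (CACGTG) was found in Cry1 and Per1, a D-box (TTATGTAA) in Per3 and a ROR response element (ANTAGGTCA) in Arntl and Nfil3, searched on both strands with no overlap between matches. Of all 27025 genes with a window, 8.09% held the E-box, 1.11% the D-box and 0.707% the ROR response element. Of their 32851 windows it was 7.15%, 0.938% and 0.661%. With 1 more A required in front of the ROR response element, the match in Nfil3 was lost and that in Arntl stayed (0.259% of all genes, 0.219% of all windows). The windows of Clock, Npas2, Cry2 and Rora held none of these letters, which says nothing of elements elsewhere. Shown are Arntl, Npas2, Nfil3 and Per3, whose differences between aged MISR and young WT muscle were the widest, and Per1, with the widest spread, with the motifs in capitals. The Arntl window is the second of 2, at chr7:113207261-113207560 (plus strand), and its ROR response element is at bases 279 to 287, counted from 1 at the 5′ end of the window. In Nfil3 (chr13:52980990-52981289, minus strand) it is at bases 239 to 247 and runs on the opposite strand. The Per3 window (chr4:151044616-151044915, minus strand) holds 2 D-boxes, at bases 46 to 53 and 93 to 100. The first Per1 window (chr11:69098699-69098998, plus strand) holds the E-box at bases 85 to 90, and Npas2 is at chr1:39194022-39194321 (plus strand).
Arntl: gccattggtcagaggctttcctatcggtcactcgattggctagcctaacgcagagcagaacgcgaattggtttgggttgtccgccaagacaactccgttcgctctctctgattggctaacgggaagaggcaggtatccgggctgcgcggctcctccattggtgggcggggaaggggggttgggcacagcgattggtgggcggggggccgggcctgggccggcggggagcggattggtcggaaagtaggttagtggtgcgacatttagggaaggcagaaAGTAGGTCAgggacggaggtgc
Npas2: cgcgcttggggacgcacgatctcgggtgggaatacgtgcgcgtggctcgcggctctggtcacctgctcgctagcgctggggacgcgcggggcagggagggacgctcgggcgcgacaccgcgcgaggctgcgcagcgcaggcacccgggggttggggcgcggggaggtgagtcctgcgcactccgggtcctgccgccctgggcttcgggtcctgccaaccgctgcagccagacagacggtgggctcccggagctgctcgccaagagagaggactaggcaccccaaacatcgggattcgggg
Nfil3: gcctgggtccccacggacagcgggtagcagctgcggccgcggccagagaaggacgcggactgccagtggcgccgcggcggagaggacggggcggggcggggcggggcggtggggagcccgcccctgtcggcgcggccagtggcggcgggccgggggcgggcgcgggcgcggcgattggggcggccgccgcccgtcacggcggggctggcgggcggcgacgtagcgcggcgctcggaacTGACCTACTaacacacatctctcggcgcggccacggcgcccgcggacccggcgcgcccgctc
Per3: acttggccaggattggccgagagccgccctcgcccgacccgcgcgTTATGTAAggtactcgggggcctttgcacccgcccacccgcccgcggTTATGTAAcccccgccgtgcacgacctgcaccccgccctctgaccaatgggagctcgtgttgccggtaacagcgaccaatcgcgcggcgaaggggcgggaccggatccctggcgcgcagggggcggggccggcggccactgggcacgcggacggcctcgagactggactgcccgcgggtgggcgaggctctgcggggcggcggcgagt
Per1: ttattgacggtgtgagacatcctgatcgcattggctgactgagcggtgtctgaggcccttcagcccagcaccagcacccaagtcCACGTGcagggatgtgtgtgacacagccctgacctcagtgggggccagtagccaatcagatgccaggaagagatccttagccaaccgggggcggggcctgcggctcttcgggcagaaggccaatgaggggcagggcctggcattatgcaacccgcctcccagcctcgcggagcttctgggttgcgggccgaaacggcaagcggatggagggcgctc

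Values below are RMA signals or their differences, both on the log2 scale. A gene was tested when its signal reached the median of its array in at least 2 arrays, which held for 13364 genes and for all 9 measured members. Array medians ranged from 5.86 to 5.93, and all 12 muscle fiber markers read at least 11.47 in every array. Slow fiber genes (10 tested, as the median deviation from a gene's mean over all arrays) were at 0.451 to 0.519 in the young WT arrays, at -0.645 and -0.072 in aged WT and at -0.990 and 0.067 in aged MISR. Macrophage markers (12 of 14 tested) were at -0.222 to -0.116, then -0.509 and 0.045, then 0.511 and 0.446. Platelet markers (10 of 13) were at 1.07 in aged MISR 1 and at -0.497 to 0.245 in the other arrays, and adipocyte markers (8 of 10) at 0.689 in aged MISR 2 and at -0.261 to -0.012 in the others. Neutrophil markers (12 of 12), the list with the widest spread, were at -0.155 to 0.458 in the young WT arrays, at 0.403 and -0.524 in aged WT 2 and 3 and at 0.953 and -0.952 in aged MISR 1 and 2. Markers of fibro-adipogenic progenitors (11 of 12) were at 0.048 to 0.178, then -0.483 and -0.159, then -0.068 and 0.323. Immediate-early genes (19 of 20) were at -0.040 to 0.030, then -0.195 and -0.232, then 0.121 and 0.206. These are levels of RNA in whole muscle, where fewer cells of a type and less RNA per cell cannot be told apart.

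Arntl was higher in both aged groups than in young WT muscle, and Npas2 and Nfil3 were higher in aged MISR than in young WT muscle. Per3 was lower in every aged array but did not pass the test. Cry1, Cry2 and Rora stayed within 0.20 of young WT muscle in both aged groups, and Per1 varied most between arrays of 1 group. No member passed between the aged groups. As the time of day of collection is not stated, age or genotype and collection time cannot be told apart in any of these differences.

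**Figure D1:**
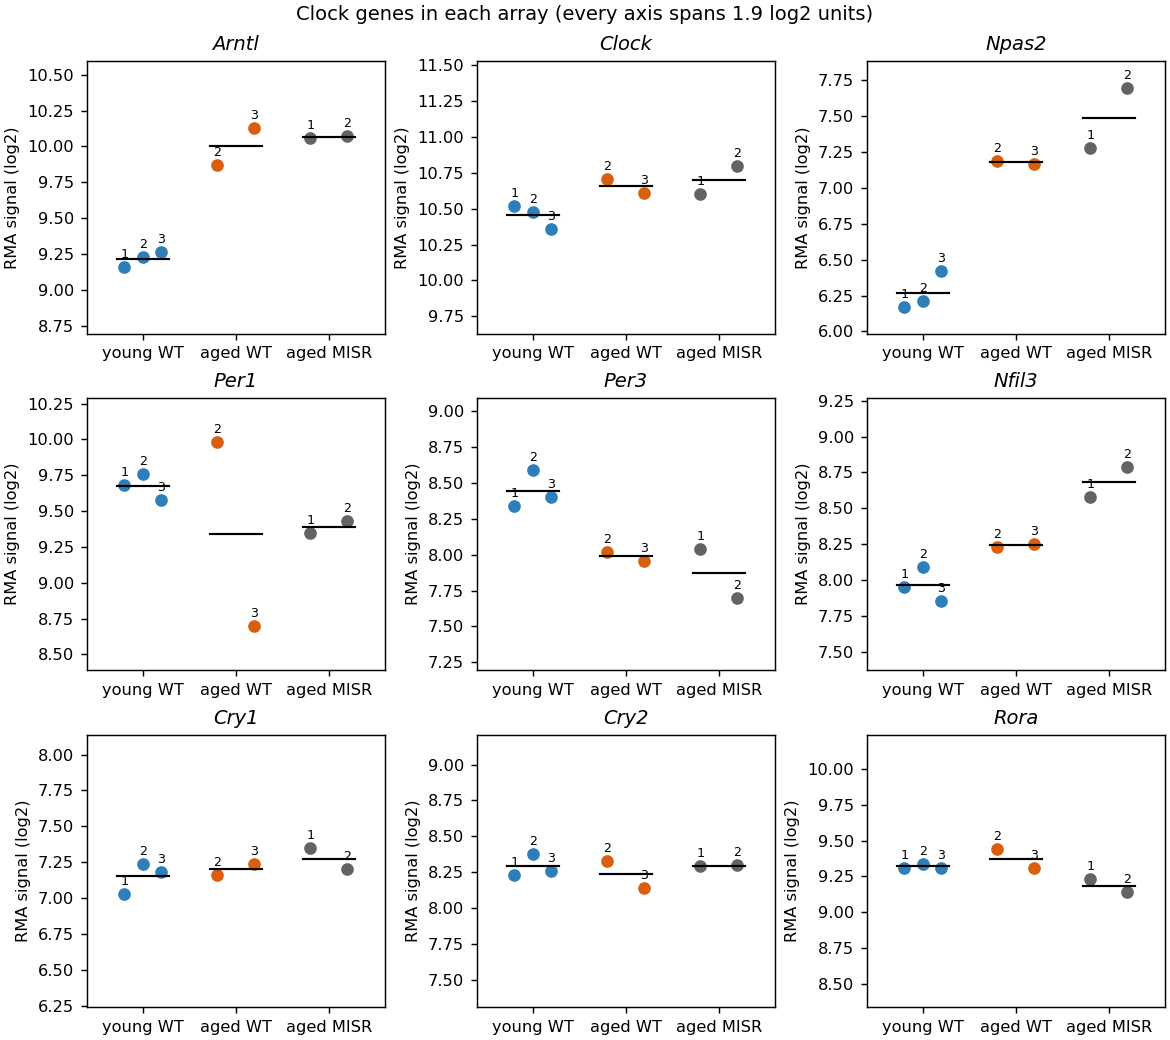
RMA signal (log2) of the 9 measured clock genes in each array, with a point for each array marked with its replicate number and a line at the group mean. Arntl, Npas2 and Per3 put the 3 young WT arrays apart from all 4 aged ones, while the 2 aged WT arrays of Per1 lie 1.28 apart.

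Arntl encodes BMAL1, the partner of CLOCK and NPAS2 at E-boxes. The gene lies at chr7:113178471-113314126 (GRCm38.p6). Its signal was 9.16, 9.23 and 9.26 in young WT 1 to 3, 9.87 and 10.13 in aged WT 2 and 3, and 10.06 and 10.07 in aged MISR 1 and 2. All 4 aged arrays lay above all young WT arrays, and the 2 aged groups overlapped. In aged WT against young WT muscle Arntl rose 1.72-fold (log2 difference 0.78, standard error 0.087, 95% interval 0.58 to 0.99, adjusted p = 0.0356 from limma with Benjamini-Hochberg adjustment). It rose 1.80-fold in aged MISR against young WT muscle (0.84, standard error 0.087, 95% interval 0.64 to 1.05, adjusted p = 0.0241). The difference between the aged groups was 0.06, with a 95% interval of -0.16 to 0.29 (adjusted p = 0.823). The median deviation of slow fiber genes was lower in all 4 aged arrays than in young WT arrays, the opposite direction to Arntl. It was -0.072 and -0.645 in aged WT 2 and 3, and -0.99 and 0.067 in aged MISR 1 and 2. The aged MISR arrays thus differed in slow fiber genes but not in Arntl. The part of slow fiber genes in the result was not tested. Both differences to young WT muscle use the same 3 young WT arrays and are not independent of each other.

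Clock (chr5:76209868-76305603) and Npas2 (chr1:39193702-39363240) encode the alternative partners of BMAL1. Npas2 read 6.17, 6.21 and 6.42 in young WT 1 to 3, 7.19 and 7.17 in aged WT 2 and 3, and 7.28 and 7.70 in aged MISR 1 and 2. The groups did not overlap, in the order young WT, aged WT and aged MISR, and aged MISR 2 was highest. Npas2 rose 2.34-fold in aged MISR against young WT muscle (log2 difference 1.23, standard error 0.13, 95% interval 0.91 to 1.54, adjusted p = 0.0276 from limma). In aged WT against young WT muscle the difference was 0.91 (standard error 0.13, 95% interval 0.60 to 1.23) and just missed the threshold (adjusted p = 0.0563). From aged WT to aged MISR muscle it was 0.31 (95% interval -0.03 to 0.66, adjusted p = 0.448), with 0.10 without aged MISR 2 and 0.53 without aged MISR 1. Clock read 10.52, 10.48 and 10.36 in young WT mice, 10.71 and 10.61 in aged WT mice, then 10.60 and 10.80 in aged MISR mice. Again no aged array overlapped the young ones, with differences of 0.21 (aged WT, adjusted p = 0.305) and 0.25 (aged MISR, adjusted p = 0.200) that did not pass.

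Nfil3 (chr13:52967209-52982878) encodes a repressor at D-boxes and differed most between the aged groups. It read 7.95, 8.09 and 7.85 in young WT 1 to 3, 8.23 and 8.25 in aged WT 2 and 3, and 8.58 and 8.79 in aged MISR 1 and 2. The 3 groups were apart, with aged WT muscle between the others. Against young WT muscle Nfil3 rose 1.65-fold in aged MISR muscle (log2 difference 0.72, standard error 0.096, 95% interval 0.50 to 0.95, adjusted p = 0.0382 from limma). In aged WT against young WT muscle the difference was 0.28 (adjusted p = 0.237), and between the aged groups it was 0.44 (95% interval 0.20 to 0.69, adjusted p = 0.186), neither of which passed over all genes. Aged MISR 2, which was highest in Nfil3 and in Npas2, was also the array with the highest adipocyte and the lowest neutrophil markers. The median deviations of macrophage markers and of immediate-early genes were higher in both aged MISR arrays than in any WT array, as Nfil3 was. Against aged WT muscle, 12 of 12 macrophage markers and 16 of 19 immediate-early genes had a positive difference in aged MISR muscle. Over all tested genes it was 7235 of 13364. Other lists were alike, with 11 of 11 markers of fibro-adipogenic progenitors, 10 of 10 platelet and 11 of 12 endothelial markers, but 5 of 12 neutrophil markers. The part of these lists in the values of Nfil3 and Npas2 was not tested.

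Per3 (chr4:150997018-151044707) and Per1 (chr11:69095108-69109965) encode period proteins, the repressors that close the main loop. Per3 read 8.34, 8.59 and 8.40 in young WT 1 to 3, 8.02 and 7.96 in aged WT 2 and 3, and 8.04 and 7.70 in aged MISR 1 and 2. All 4 aged arrays lay below all young WT arrays. The difference was -0.45 in aged WT (standard error 0.12, 95% interval -0.73 to -0.17, adjusted p = 0.155) and -0.57 in aged MISR muscle (standard error 0.12, 95% interval -0.85 to -0.30, adjusted p = 0.0924), 1.37-fold and 1.49-fold lower, and neither passed in limma's test. The aged groups differed by -0.12 (95% interval -0.43 to 0.18), which turned to 0.05 without aged MISR 2.

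Per1, a period gene that also responds quickly to stress hormones and other stimuli, read 9.68, 9.76 and 9.58 in young WT 1 to 3, 9.98 and 8.70 in aged WT 2 and 3, and 9.35 and 9.43 in aged MISR 1 and 2. Aged WT 2 was the highest and aged WT 3 the lowest of the 7 arrays. The mean of aged WT muscle was 9.34 ± 0.908 (SD, n = 2) against 9.67 ± 0.0899 (SD, n = 3) in young WT and 9.39 ± 0.0566 (SD, n = 2) in aged MISR muscle. The difference of -0.33 in aged WT muscle had a 95% interval of -1.09 to 0.42 and turned to 0.31 without aged WT 3, so no direction can be given. Both aged MISR arrays lay below the young WT arrays, with a difference of -0.28 (95% interval -1.03 to 0.47, adjusted p = 0.644 from limma). That interval uses a spread shared by all 3 groups, the wide one of aged WT muscle included. With only the 2 groups compared, the standard error was 0.074 in place of 0.32, and Per1 still did not pass (adjusted p = 0.170 from limma). This difference kept its direction under all 18 alternatives. Neutrophil markers (0.403 and -0.524) differed between aged WT 2 and 3 in the same direction as Per1. Other lists did too, among them macrophage markers (0.045 and -0.509) and slow fiber genes (-0.072 and -0.645). Markers of fibro-adipogenic progenitors (-0.483 and -0.159) went the other way. In aged MISR 1 and 2 neutrophil markers were at 0.953 and -0.952, where Per1 read 9.35 and 9.43. The part of these lists in the spread of Per1 was not tested.

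Cry1 (chr10:85131700-85185054) and Cry2 (chr2:92403646-92434085) encode cryptochromes, the partners of the period proteins. Cry1 ranged from 7.03 to 7.35 and Cry2 from 8.14 to 8.38 over the 7 arrays, and all 3 groups overlapped in both genes. Their differences lay between -0.05 and 0.13 over the 3 comparisons, with 95% intervals that stayed within -0.25 and 0.33. Rora (chr9:68653404-69388246), the receptor that raises Arntl transcription, ranged from 9.14 to 9.44. It was 9.31, 9.34 and 9.31 in young WT mice, 9.44 and 9.31 in aged WT mice, then 9.23 and 9.14 in aged MISR mice, where both arrays lay below the other 5. Its difference was -0.19 to aged WT (95% interval -0.37 to -0.01, adjusted p = 0.375 from limma) and -0.14 to young WT muscle (adjusted p = 0.317), and neither passed.

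**Figure D2:**
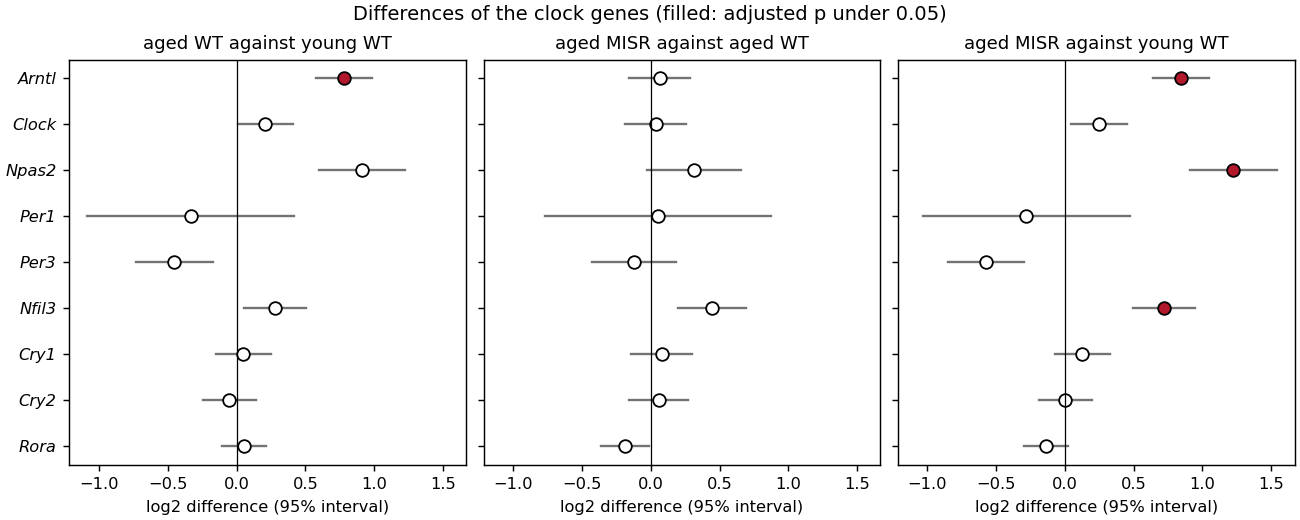
Difference of group means (log2, x axis) of the 9 clock genes in the 3 comparisons, with 95% intervals from limma as lines and filled points for an adjusted p under 0.05. Arntl is filled in both comparisons with young WT muscle, Npas2 and Nfil3 in aged MISR against young WT muscle, and no point is filled in aged MISR against aged WT muscle.

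Counted over the 9 genes, 1 was called higher and 0 lower in aged WT against young WT muscle, where 0.0973% of the 13364 tested genes were called higher and 0.0823% lower (0.18% in all). Compared with young WT, aged MISR muscle had 3 called higher and 0 lower, where 0.456% of all tested genes were called higher and 0.135% lower (0.591% in all). In the comparison of both aged groups limma called 0, where 0.0524% of all tested genes were called, each of them higher in aged MISR muscle. At an unadjusted p under 0.05 there were 5, 5 and 2 members in these comparisons, in the same order, where 15.7%, 18.8% and 12.2% of all tested genes had such a p. A plain 2-group test of each gene, without limma's moderation of the variance, called 0 members in each comparison after adjustment. Of all tested genes the plain test called 1, 6 and 3, in the same order. The median difference of the 9 genes was 0.05 for aged WT muscle and 0.13 for aged MISR muscle, each against young WT, and 0.06 between the aged groups, beside 0.0077, 0.04 and 0.01 over all tested genes. The median size of the difference regardless of sign was 0.28 in aged WT and 0.28 in aged MISR muscle against young WT, beside 0.10 and 0.11 over all tested genes, and 0.08 beside 0.09 between the aged groups. Arrays did not overlap in 5 of 9 members in aged WT against young WT muscle, 4 higher and 1 lower (37.7% of all tested genes, 22% higher and 15.7% lower). In aged MISR against young WT they did not overlap in 7 of 9, 4 higher and 3 lower (38% of all tested genes, 24.4% higher and 13.6% lower). Between the aged groups they did not overlap in 3 of 9, 2 higher and 1 lower (35.8% of all tested genes, 20.3% higher and 15.4% lower). The 9 genes were chosen with earlier results of these data known, so these counts and medians are no test of the list.

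The arms of the loop can be compared as deviations from the mean of a gene over all arrays. The mean deviation of Arntl, Clock and Npas2 was -0.432, -0.407 and -0.366 in young WT 1 to 3, 0.210 and 0.254 in aged WT 2 and 3, and 0.265 and 0.476 in aged MISR 1 and 2. Young and aged arrays were thus apart in this arm, where Clock alone ranged from -0.220 to 0.214. Arntl and Npas2 had already been called in these same arrays, so this mean deviation is no further test. For Per1 and Per3 it was 0.186, 0.350 and 0.167 in young WT mice, 0.176 and -0.494 in aged WT mice, then -0.127 and -0.258 in aged MISR mice. With Cry1 and Cry2 added it was smaller, at 0.040, 0.211 and 0.073, then 0.091 and -0.270, then -0.023 and -0.123. Aged WT 2 stood within the young range in both of these sets. Over the 9 genes, 2 young WT arrays had a root mean square difference of 0.125 to 0.150, the pair of aged WT arrays one of 0.446 and the aged MISR pair one of 0.216. Between young WT and aged arrays it was 0.417 to 0.708, and between aged WT and aged MISR arrays 0.258 to 0.378. Over all tested genes the corresponding ranges were 0.212 to 0.318 and 0.253 to 0.287.

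**Figure D3:**
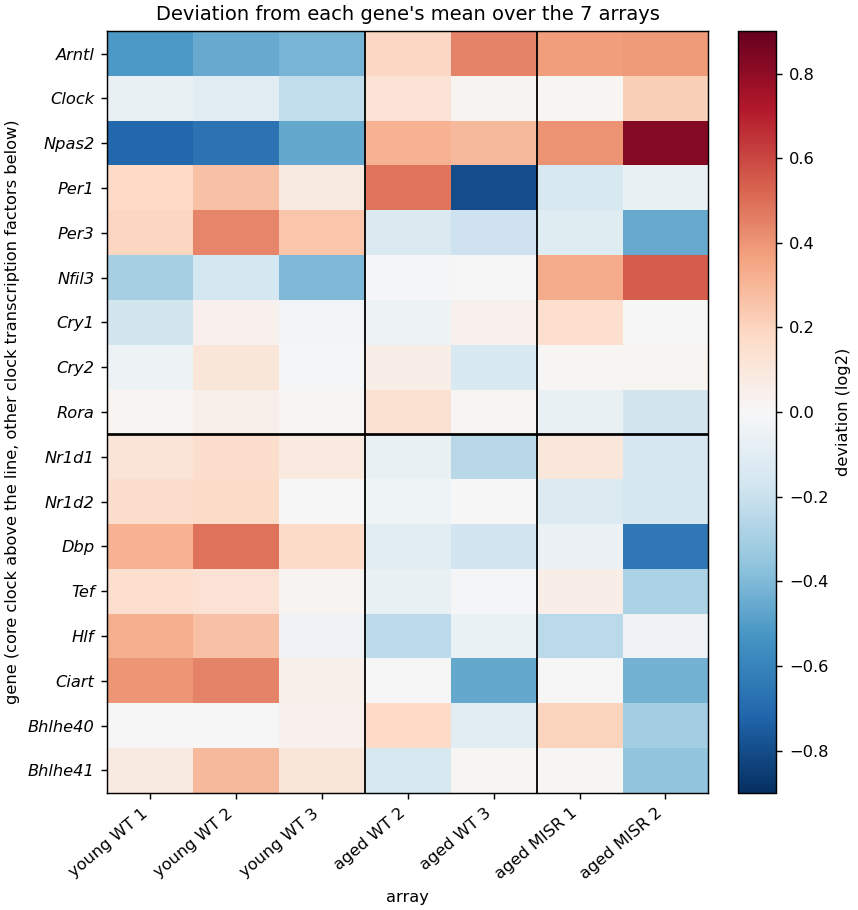
Deviation (log2, color) of each gene from its own mean over the 7 arrays, with arrays as columns, the 9 measured core clock genes above the line and 8 further clock transcription factors below it. Arntl and Npas2 are below their mean in all 3 young WT arrays and above it in all 4 aged arrays, and Per3 and Dbp show the reverse.

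Of 36 other genes of the clock pathway (further transcription factors, kinases and ubiquitin ligases that act on the clock proteins, and known clock targets), 30 could be tested and 0 passed limma's test in any comparison. The plain 2-group test also called 0. Calls were few among all 13364 tested genes too. There limma called 24 (aged WT) and 79 (aged MISR) compared with young WT muscle, and 7 between the aged groups. The plain test called 1, 6 and 3, in that order. At an unadjusted p under 0.05 there were 11 genes in each aged group against young WT muscle and 2 between the aged groups. Such a p was found in 15.7% (aged WT), 18.8% (aged MISR) and 12.2% (between the aged groups) of all tested genes. The median difference of the 30 genes was -0.09 in each comparison with young WT muscle and -0.02 between the aged groups. Over all tested genes these medians were 0.0077 (aged WT), 0.04 (aged MISR) and 0.01 (between the aged groups). Dbp, an activator at D-boxes, read 9.41, 9.59 and 9.27 in young WT mice, 9.0 and 8.93 in aged WT mice, then 9.05 and 8.46 in aged MISR mice, with differences to young WT muscle of -0.46 (adjusted p = 0.270) and -0.67 (adjusted p = 0.130). Its aged arrays all lay below the young ones, as those of Per3 did. Ciart, a repressor of the BMAL1 complex, read 8.20, 8.25 and 7.85 in young WT mice, 7.81 and 7.34 in aged WT mice, then 7.81 and 7.38 in aged MISR mice. It differed by -0.52 (adjusted p = 0.265) and -0.51 (adjusted p = 0.229).

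The REV-ERB gene Nr1d1, whose product represses Arntl and Npas2, was 11.26, 11.30 and 11.22 in young WT mice, 11.07 and 10.89 in aged WT mice, then 11.24 and 10.99 in aged MISR mice, a difference of -0.28 for aged WT (adjusted p = 0.232) and of -0.14 for aged MISR muscle (adjusted p = 0.430), where the arrays overlapped those of young WT. Its relative Nr1d2 differed by -0.13 in aged WT and -0.25 in aged MISR muscle (adjusted p = 0.429 and 0.160). Hlf, an activator at D-boxes, differed by -0.34 and -0.32 (adjusted p = 0.270 and 0.236). These 3 were picked after their values were seen. Of the 30 genes, Klf15, a clock-driven factor of metabolism, had the largest positive difference to young WT muscle (0.34 in aged WT and 0.35 in aged MISR). It read 8.38 in aged WT 2 and 8.41 in aged MISR 1. Its values of 7.88 in aged WT 3 and 7.87 in aged MISR 2 lay within the young WT range of 7.70 to 7.89. Next were Myod1, a myogenic factor (0.29 in aged WT), and Pdk4, a kinase that limits glucose oxidation (0.23 in aged MISR). Between the aged groups, Myod1 was at -0.41 and Dbp at -0.21 at the lower end, with Wee1, a cell cycle kinase, at 0.36 and Pdk4 at 0.22 at the upper end. Adjusted p-values of these differences from limma were 0.231 to 0.794. Wee1 read 6.22 and 6.67 in aged WT 2 and 3, and 6.87 and 6.74 in aged MISR 1 and 2. Pdk4 read 11.06 and 12.07 in aged WT 2 and 3, on either side of 11.89 and 11.68 in aged MISR 1 and 2. No direction can be given for Pdk4 between the aged groups.

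The calls rest on few arrays. With each of the 3 young WT arrays left out in turn, none of the 9 genes passed in either comparison with young WT muscle. Of all tested genes, 0 passed in these fits in aged WT and 0 to 2 in aged MISR against young WT muscle. Arntl still differed by 0.75 to 0.80 in aged WT and by 0.82 to 0.87 in aged MISR muscle. Calls over all tested genes also moved with the other arrays left out. Without aged WT 2 or aged WT 3 Arntl did not pass in aged WT muscle (0.91 and 0.65, adjusted p = 0.229 and 0.0647), with the remaining array assumed to vary like the other groups. Without either aged MISR array Npas2 passed in aged WT against young WT muscle too, with an unchanged difference of 0.91 (adjusted p = 0.0314). In the comparison of aged MISR with young WT muscle, Arntl passed without either aged WT array, Npas2 without aged MISR 1 (1.44), and all of Arntl, Nfil3 and Npas2 without aged MISR 2 (0.84, 0.62 and 1.01). Arntl and Nfil3 missed it without aged MISR 1 (adjusted p = 0.0656 and 0.0626). Npas2 and Nfil3 missed the threshold there without either aged WT array (adjusted p = 0.0601 and 0.0744). Over the 18 alternatives tried, Nfil3 passed in 5, Npas2 in 9 and Arntl in 11 in that comparison, and Arntl passed in 9 in aged WT against young WT muscle. These are not 18 separate results. For aged WT against young WT muscle, leaving out either aged MISR array gave the same result as only the 2 groups compared. The same held for either aged WT array in aged MISR against young WT muscle.

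**Figure D4:**
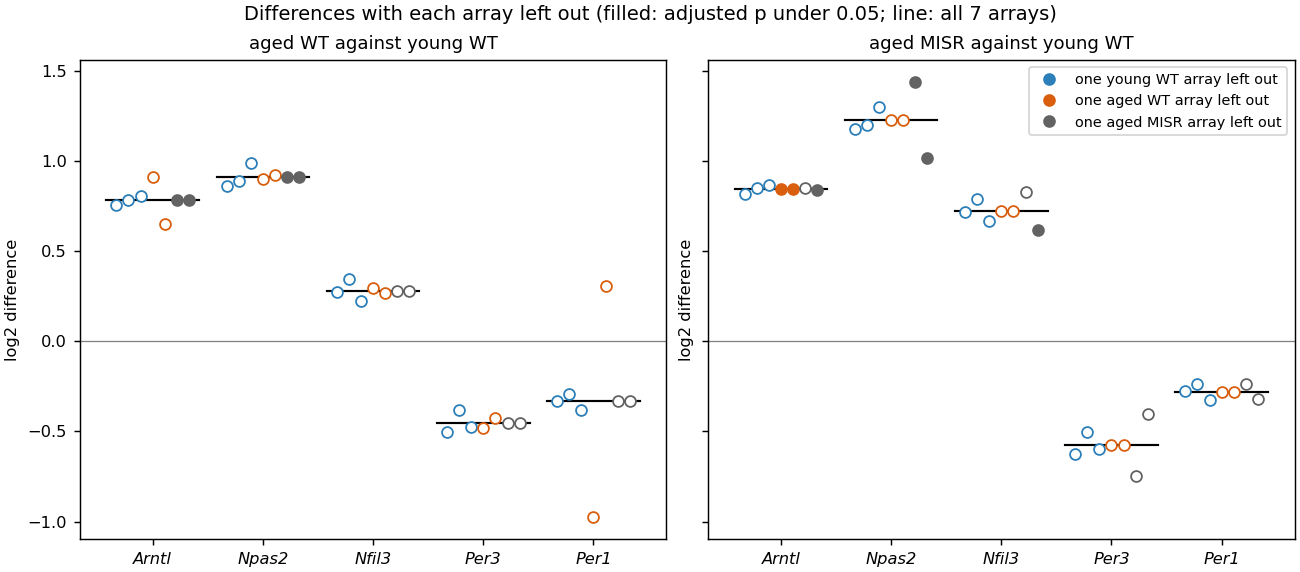
Difference to young WT muscle (log2, y axis) of 5 clock genes with each of the 7 arrays left out in turn, colored by the group of the array left out, filled for an adjusted p under 0.05, with a line at the value from all arrays. The differences of Arntl, Npas2, Nfil3 and Per3 keep their sign in every point, and that of Per1 in aged WT muscle changes sign without aged WT 3.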

How the data were processed

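The authors extracted RNA from whole muscle with Trizol, kept samples with a high RNA integrity number, labelled them with the GeneChip WT PLUS kit and normalized the 7 arrays by RMA. The authors deposited log2 RMA values, with the RMA version not given in the sources used. The members and gene lists were chosen with earlier results of these data known. Of 41345 features, 23521 had 1 gene symbol in the platform table, 1820 had several and 16004 were not listed. The feature with the highest mean stood for a gene. A gene was tested if it reached its array's median in at least 2 arrays.

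A single limma model (version 3.58.1, R 4.3.3) of all 7 arrays, without a block, had 4 residual and 3.13 prior degrees of freedom, and Benjamini-Hochberg adjustment ran over 13364 genes (threshold 0.05). The fit was tested on simulated data. With 2 or 3 arrays in a group, precision is low. Named were all members, pathway genes called or with the 2 largest rises and falls in a comparison, and the 4 genes outside the members nearest to each called member and to its mirror image. In all, 18 alternatives were tried, among them each array left out, another normalization, other filters, the mean of a gene's features, other variance models and a plain 2-group test (Student's), which the study's methods name for other measurements and not for the arrays. Promoters came from RefSeq (GRCm38.p6). Figures were drawn with Python 3.11.15 and matplotlib 3.10.9.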

Additional observations from a re-analysis of the deposited data

How the results depend on the processing

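The number of clock genes called in aged WT against young WT muscle (1, Arntl) ranged from 0 to 2 when 1 array was left out. It was 0 without aged WT 2 and aged MISR 1 together, without the signal filter and in a plain 2-group test, and 2 (Arntl and Npas2) with arrays centred on their medians, a filter at the 60th percentile, a variance prior with trend and robust estimation, array weights and only the 2 groups compared. In aged MISR against young WT muscle (3 genes) it ranged from 0 to 3 when 1 array was left out, and was 0 without aged WT 2 and aged MISR 1 together, 0 in a plain 2-group test and 1 (Arntl) with only the 2 groups compared. It was 2 there with a second quantile normalization, without the filter and with array weights, since Nfil3 missed the threshold (adjusted p = 0.0541, 0.0589 and 0.0659). Between the aged groups it was 0 under all 18 alternatives. The replicate number as a block left 0 calls in each comparison. Deviations of arrays with the same number correlated at -0.224 to -0.00822. With 2 or 3 arrays in a group these correlations cannot tell whether the numbers pair the mice. The labels give the number alone. Over all genes, the calls in aged WT against young WT muscle went from 24 to between 0 and 162, those in aged MISR against young WT muscle from 79 to between 0 and 466, and those in aged MISR against aged WT muscle from 7 to between 0 and 113.

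The differences of Arntl, Clock, Npas2, Nfil3 and Per3 to young WT muscle kept their direction under all 18 alternatives in both aged groups. Small differences changed sign. When 1 array was left out, the ranges in aged WT against young WT muscle were -0.0092 to 0.0943 for Cry1, -0.151 to 0.0415 for Cry2, -0.976 to 0.308 for Per1 and -0.0116 to 0.116 for Rora. Between the aged groups they were -0.0652 to 0.194 for Arntl, -0.062 to 0.135 for Clock, -0.0398 to 0.153 for Cry2, -0.588 to 0.696 for Per1 and -0.293 to 0.0487 for Per3. For Cry2 in aged MISR against young WT the range was -0.0278 to 0.0472. Without aged WT 2 and aged MISR 1 together, Rora was at -0.0116 in aged WT against young WT muscle, and Arntl at -0.0591, Clock at 0.187, Cry1 at -0.0386, Cry2 at 0.157 and Per1 at 0.736 in aged MISR against aged WT muscle. With the block Per1 was at -0.18 in aged MISR against aged WT muscle and Cry2 at -0.0284 in aged MISR against young WT, where a second quantile normalization gave -0.0895. The causes were not tested.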

Other observations

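Among tested genes outside the members, those closest to Arntl over the 7 arrays were Tmem132b, Bex1, Ppfibp2 and Pkp2, with a root mean square difference between deviations of 0.0930 to 0.143 (log2), against a median of 0.409 over all genes. The closest to its mirror image were Cep85l, E230001N04Rik, Cd59a and Prima1 (0.0952 to 0.141). Tmem132b read 7.38, 7.59 and 7.57 in young WT mice, 7.96 and 8.30 in aged WT mice, then 8.23 and 8.17 in aged MISR mice, and Cep85l 9.13, 9.23 and 8.99, then 8.63 and 8.28, then 8.17 and 8.29. Both separated the young from the aged arrays, as Arntl did, and aged WT 2 was the aged array nearest to young muscle in each.

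For Npas2 the closest outside the members were Ankrd1, Tbx1, Wsb1 and Dapk1 (0.199 to 0.217, median over all genes 0.555) and in mirror image Dusp10, Mettl21c, 1700030N03Rik and Flvcr1 (0.138 to 0.183). For Nfil3 they were Mras, Hes1, Ak4 and Cfb (0.0603 to 0.103, median 0.312) and in mirror image Gm5, Ccl28, Gm20597 and Olfr523 (0.0632 to 0.111). Hes1, a transcriptional repressor of the Notch pathway, read 7.52, 7.47 and 7.38 in young WT mice, 7.64 and 7.62 in aged WT mice, then 8.08 and 8.17 in aged MISR mice, in the same group order as Nfil3. Among the members, Arntl stood 4th of 13363 genes in likeness to Npas2 (0.213), Npas2 stood 66th in likeness to Arntl, and Per3 stood 19th in likeness to the mirror image of Arntl and of Npas2. These distances describe 7 arrays in 3 groups and were not tested.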
